A study of Mus musculus with 25 samples.

Results

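The 8 mouse genes Tcf4, Tcf12, Tal1, Tfap4, Id1, Id2, Id3 and Id4 were compared between αTC1 and βTC6, cell lines derived from mouse pancreatic islet tumours and used as models of glucagon-secreting alpha cells and insulin-secreting beta cells. The genes were taken by name as E-box binding helix-loop-helix factors and their Id antagonists, and make up 8 of 24439 genes in the RNA-seq table. Of 65053 consensus ATAC-seq peaks, 52 were annotated to 1 of these genes as the nearest gene. The annotation gives position only, so a peak is called by the gene it lies nearest to without a claim on which gene it acts. In ATAC-seq a transposase cuts accessible DNA and tags it for sequencing, and reads therefore pile up over open chromatin.

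The αTC1 cells were alpha TC1 clone 6, a single clone, with 5 ATAC-seq and 3 RNA-seq libraries, and the βTC6 cells were beta-TC-6, with the same numbers. Both lines came from a commercial cell bank and were untreated, but each was kept in its own DMEM-based medium with a different share of serum, so that line and medium cannot be told apart in any comparison here. In 9 further ATAC-seq libraries the cells of the lines were counted and mixed in steps of 10%, with 1 library per composition. Nothing states whether the replicates of a line were grown as separate cultures, and p-values therefore measure the spread between these libraries, which may be technical. The RNA-seq libraries of the lines held 21795367 to 25876765 expected counts, and the pure ATAC-seq libraries held 4397851 to 10374903 reads in peaks. No pair of libraries held identical values, but libraries of a line were not equally alike. By chi-square per degree of freedom over the counts, αTC1 ATAC-seq replicates 1 to 3 differed from each other by 2.06 to 2.16 and from replicates 4 and 5 by 9.26 to 10.5, and for βTC6 these ranges were 2.26 to 2.54 and 4.38 to 8.17. αTC1 RNA-seq replicates 1 and 2 differed by 2.03 and each from replicate 3 by 26.3 and 27.7, beside 16.4 to 36.2 within βTC6, and without αTC1 replicate 3 the same number of the 8 genes, 3, was called. The lines carried the hormone genes of their labels: Gcg was between 12113 and 14406 FPKM (fragments by transcript length and sequencing depth) in αTC1 against 172.2 to 267 in βTC6, and Ins2 between 23541 and 35748 FPKM in βTC6 against 0.19 to 0.64 in αTC1. Pdx1 and Ins1 were at 0 in αTC1. Sst, the delta cell hormone, was at 207 to 325 FPKM in βTC6 and at 0 in αTC1, and Ppy, the PP cell hormone, at 3.70 to 50.8 against 0.09 to 0.10 FPKM. Of 3 duct markers Sox9 was at 4.05 to 4.42 FPKM in αTC1 and 0 in βTC6, whereas Krt19 and Cftr did not exceed 0.08 FPKM in any library. Of 5 acinar markers Cela1 was at 3.58 to 3.70 FPKM in αTC1 and 0.14 to 0.82 in βTC6, and Cpa1, Pnlip, Amy2a5 and Prss2 did not exceed 0.08 FPKM. The part of these differences in the results was not tested. Of the endothelial markers Kdr and Cdh5 did not exceed 0.01 FPKM and Tek did not exceed 0.07 FPKM in any library. Pecam1 was at 0.04 to 0.09 FPKM in αTC1 and 0.18 to 0.28 in βTC6. Of the blood markers only Cd68 exceeded 0.15 FPKM, at 0.92 to 1.2 in αTC1 and 2.02 to 2.18 in βTC6.

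Basic helix-loop-helix (bHLH) factors bind DNA as dimers at the E-box, the hexamer CANNTG, through a basic region next to the helix-loop-helix that joins the partners. Class I factors, the E proteins, are made in most tissues and pair with tissue-restricted class II factors, among them Neurod1, a well known regulator of endocrine cells in the pancreas. Id proteins keep the helix-loop-helix but lack the basic region, so that an E protein held by an Id protein does not bind DNA. Of the 8 genes Tcf4 and Tcf12 encode E proteins, Tal1 a class II factor best known from blood and endothelial cells, and Tfap4 (AP4) a bHLH leucine zipper factor that pairs with itself. Id1, Id2, Id3 and Id4 are the 4 Id genes of the mouse.

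At the level of RNA, Tcf4, Tal1 and Tfap4 were lower in βTC6 than in αTC1, and Id3 and Id4 were higher, whereas Tcf12, Id1 and Id2 did not pass the test. A gene passed the test when its false discovery rate (FDR), the Benjamini-Hochberg adjusted p of edgeR's quasi-likelihood test over 12195 genes, was under 5%, and it was called when its absolute log2 fold change also exceeded 2. Log2 fold changes are of βTC6 over αTC1 throughout, and those of genes are given ± standard error. Of the 8 genes 3 were called, with 14.3% of all tested genes called, and 5 passed the FDR alone, with 74.6% of all tested genes passing it. These were 2 higher in βTC6 (38.7% of all tested genes) and 3 higher in αTC1 (36%). The level required for testing was an FPKM of at least 1 in all 3 libraries of a line. Tal1 reached it only in αTC1 and Id4 only in βTC6. The filter thus favoured a difference in these genes, and their calls say nothing about the 8 genes as a group. The other 6 reached the level in both lines.

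**Figure D1:**
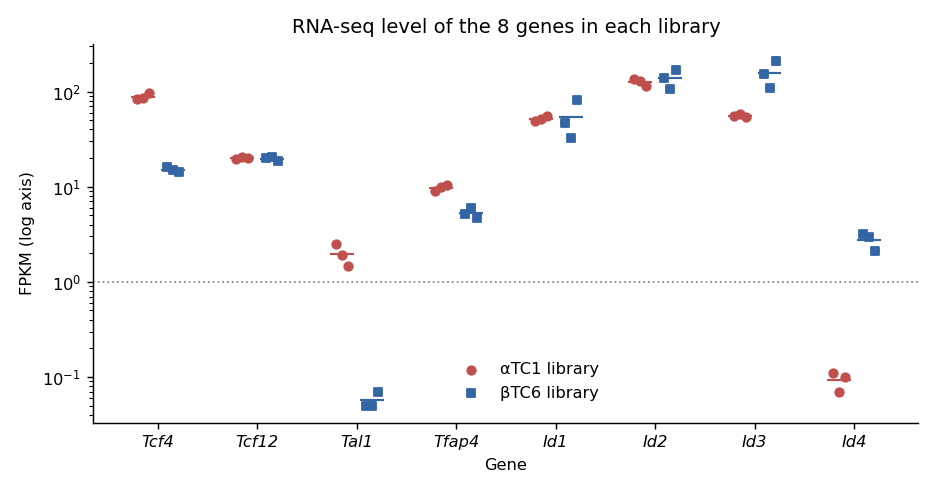
RNA-seq level of each gene in each library, as FPKM on a log axis. Circles are αTC1 and squares βTC6 libraries (3 each), short lines are means, and the dotted line marks 1 FPKM. Tcf4 and Tal1 were higher in each αTC1 library and Id3 and Id4 in each βTC6 library, whereas the libraries of the lines overlapped for Tcf12, Id1 and Id2.

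Among the E proteins, Tcf4 was the one that changed between the lines by more than 2 on the log2 scale. It lies on the plus strand of chromosome 18 and has 14 annotated transcript starts. Its level was 82.9, 86.3 and 97.2 FPKM in the 3 αTC1 libraries and 16.0, 15.0 and 14.2 FPKM in the 3 βTC6 libraries. The lowest αTC1 library was thus far above the highest βTC6 library. The difference was 5.00-fold (log2 fold change -2.32 ± 0.08, edgeR adjusted p = 3.02e-08). In bulk RNA, fewer cells that make a transcript and less of it per cell cannot be told apart, here and for every gene that follows. Tcf12 (HEB), at mm9 chr9:71692059-71959626, showed no such difference. Its level was 19.7, 20.7 and 20.0 FPKM in αTC1 and 19.8, 20.4 and 18.6 FPKM in βTC6, with a log2 fold change of 0.11 ± 0.08 (edgeR adjusted p = 0.246). Tcf3 (E2A), the remaining E protein gene and not one of the 8, had 37.4, 39.2 and 43.1 FPKM in αTC1 and 19.0, 19.1 and 20.2 FPKM in βTC6 (log2 fold change -0.98 ± 0.08, edgeR adjusted p = 4.36e-06), and thus fell together with Tcf4. The summed level of Tcf3, Tcf4 and Tcf12 was 149 ± 10.4 FPKM (SD, n = 3) in αTC1 and 54.1 ± 1.02 FPKM in βTC6. Tcf4 held the largest share of that sum in αTC1 and the smallest in βTC6, where Tcf12 and Tcf3 lay at 19.6 and 19.4 FPKM on average.

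Tal1 and Tfap4 were both lower in βTC6, at very different levels. Tal1, at chr4:114729031-114744360, had 2.51, 1.93 and 1.47 FPKM in αTC1 and 0.05, 0.05 and 0.07 FPKM in βTC6. In reads this was 204, 184 and 145 expected counts against 5, 4 and 7, and the ratio of the summed counts per sequenced count was 35.7 with an exact 95% interval of 21.8 to 62.9, which covers counting error only. The log2 fold change was -5.08 ± 0.32 (edgeR adjusted p = 9.27e-07). The summed level of 4 endothelial markers was 0.06 to 0.12 FPKM in αTC1 and 0.23 to 0.31 FPKM in βTC6, and that of 4 blood markers 1.07 to 1.24 and 2.03 to 2.19 FPKM, so that neither list was higher in the line with more Tal1. Tfap4, at chr16:4544661-4559720, lay at 9.09, 9.84 and 10.5 FPKM in αTC1 and 5.20, 6.01 and 4.66 FPKM in βTC6. No βTC6 library reached the αTC1 libraries, and the difference of 1.78-fold passed the test (log2 fold change -0.83 ± 0.14, edgeR adjusted p = 0.000412). With scaling by the ERCC spike-ins in place of the gene counts the value was -0.86, with an adjusted p of 0.139, so that the difference no longer passed the FDR, although the fold was no smaller.

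The Id genes differed in behaviour from each other. Id1 and Id2 did not pass the test, Id3 rose in βTC6 by less than the fold required for a call, and Id4 was called. Id1, at chr2:152561987-152563146 and a direct target of BMP signalling, had 49.5, 51.0 and 55.6 FPKM in αTC1 and 46.9, 32.7 and 81.7 FPKM in βTC6. The αTC1 libraries fell inside the βTC6 range, and the log2 fold change was 0.13 ± 0.27 (edgeR adjusted p = 0.677). Its sign turned to -0.31 without βTC6 replicate 3 and to -0.022 with scaling by the spike-ins, so no direction can be given. Id2, at chr12:25778666-25780957, had 135, 130 and 116 FPKM in αTC1 and 140, 105 and 170 FPKM in βTC6, again with overlapping libraries (log2 fold change 0.18 ± 0.15, edgeR adjusted p = 0.299). Without βTC6 replicate 2 it passed, with a log2 fold change of 0.33 and an adjusted p of 0.0265.

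Id3, at chr4:135699412-135701670, had 55.5, 57.7 and 54.4 FPKM in αTC1 and 154, 109 and 209 FPKM in βTC6. All βTC6 libraries lay above all αTC1 libraries, by 2.84-fold in the fit (log2 fold change 1.5 ± 0.19, edgeR adjusted p = 7.95e-05). Id4, at chr13:48356796-48359405, lay at 0.11, 0.07 and 0.10 FPKM in αTC1, from 4, 3 and 4 counts, and at 3.22, 2.94 and 2.09 FPKM in βTC6, from 137, 126 and 85 counts. The ratio of the summed counts was 29.5, with an exact 95% interval of 16.3 to 59.7, and the log2 fold change was 4.89 ± 0.33 (edgeR adjusted p = 1.40e-06). Id4 remained the least of the Id genes in βTC6, with a mean of 2.75 FPKM against 53.8 for Id1, 138 for Id2 and 157 for Id3.

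The spread between βTC6 libraries was wider for Id1, Id2 and Id3 than for the E proteins. In each of these 3 genes βTC6 replicate 3 was the highest library of the line and βTC6 replicate 2 the lowest. The summed level of the 4 Id genes was 240, 239 and 226 FPKM in αTC1 and 345, 250 and 462 FPKM in βTC6. Set against the summed E proteins of the same library, Id RNA stood at a ratio of 1.72, 1.63 and 1.41 in αTC1 and 6.29, 4.58 and 8.73 in βTC6. The sums are descriptions of RNA levels per transcript length, without a test, and hold no measure of protein.

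The genes with the most similar pattern were sought for the 3 called genes, as those with the smallest Euclidean distance of log2(FPKM + 1) over the 6 libraries. For Tcf4 these were Dner and Txnip, with distances of 0.54 and 0.59, which had mean levels of 100.02 and 87.4 FPKM in αTC1 and 16.7 and 15.5 FPKM in βTC6. For Tal1 they were Gm8420 and Shank3 (distances 0.17 and 0.23), and for Id4 Syde2 and Fgfr4 (0.19 and 0.24). With low levels in every library, as for Tal1 and Id4, a small distance is easily reached.

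Open chromatin near the 8 genes differed between the lines at most peaks and mostly by less than 4-fold, as it did over all peaks. The test was limma's, on the log2 of the normalized read count plus 1. This count is the number of reads in a peak after TMM scaling by library size, as the authors deposited it, and p was adjusted over all 65053 peaks. Of the 52 peaks 43 passed the FDR, 30 with more reads in αTC1 and 13 with more reads in βTC6, and 9 did not pass. Within replicates 4 and 5 alone 29 passed, 18 with more reads in αTC1 and 11 in βTC6, beside 17937 and 21294 over all peaks. Over all peaks and libraries 78% passed the FDR, 38.1% in the direction of αTC1 and 39.9% in that of βTC6. The median log2 fold change of the 52 peaks was -0.44, beside 0.0011 over all peaks. Among peaks of at least 5 normalized reads in all libraries of a line these medians were -0.49 and -0.19, with 26 member peaks more open in αTC1 and 7 in βTC6 beside 19859 and 16405 over all such peaks, so that the gap between the medians was smaller among stronger peaks. Of the 52 peaks 20 lay nearest to Tcf4, and the 32 peaks without them had a median of -0.42, with 18 more open in αTC1 and 5 in βTC6. The libraries of the lines did not overlap at 30 of the 52 peaks, compared with 63.9% of all peaks. A single peak, in an intron of Tcf4, was called with the fold threshold, whereas 18.3% of all peaks were. This count rests on the test, since edgeR on whole reads called 8 of the 52 peaks, beside 13794 higher in βTC6 and 5739 higher in αTC1 over all peaks, and limma with a pseudocount of 0.5 called 4, beside 11237 and 4624. With quantile normalization on top of the deposited values, 32 of the 52 peaks were more open in αTC1 and 10 in βTC6 by the FDR, and over all peaks 25860 and 23183 were. With the fold threshold, the calls over all peaks turned from 8409 in βTC6 and 3502 in αTC1 to 5655 and 5126.

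**Figure D2:**
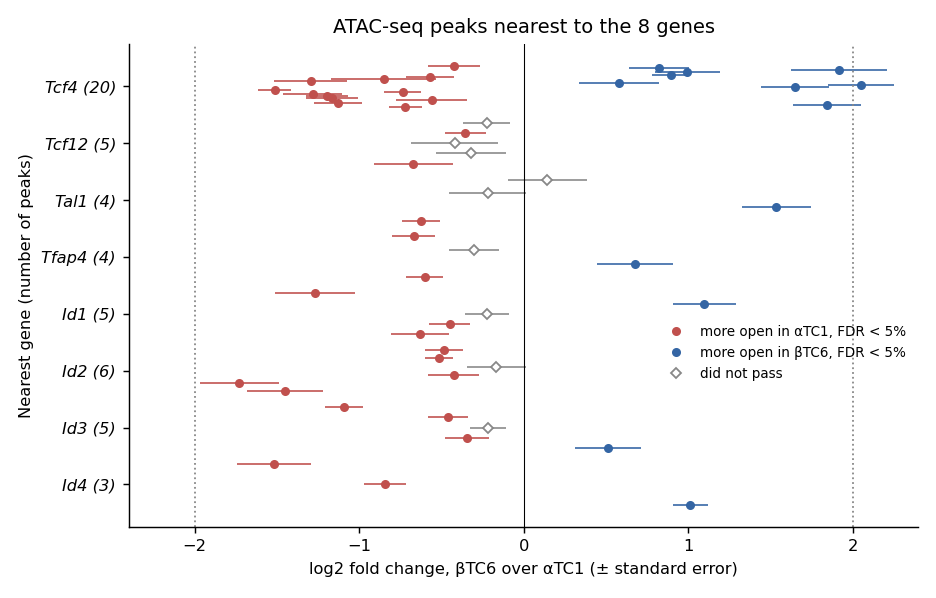
Log2 fold change (βTC6 over αTC1) with its standard error for each of the 52 ATAC-seq peaks, by nearest gene, with the peaks of a gene ordered by position relative to its start site. Filled circles passed the FDR, open diamonds did not, and dotted lines mark the fold threshold of 2. For each gene except Tcf12 and Id2 there were peaks in both directions that passed.

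The peaks of Tcf4 did not move in one direction along the gene. All 20 passed the FDR, with 12 more open in αTC1 and 8 in βTC6, and at 15 the libraries of the lines did not overlap. The peak at the first annotated start site was more open in αTC1, with 29.7, 27.3, 39.7, 27.3 and 23.1 normalized reads in its 5 libraries against 19.6, 17.4, 18.8, 15.3 and 26.3 in βTC6 (log2 fold change -0.57 ± 0.14, limma adjusted p = 0.00134). Its libraries overlapped, since βTC6 replicate 5 exceeded αTC1 replicate 5. Within replicates 4 and 5, whose share of mitochondrial reads the study computed in another way than that of replicates 1 to 3, the value was -0.31 with an adjusted p of 0.325, and within replicates 1 to 3 it was -0.74.

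The stretch from 124.2 to 171.8 kb into the gene was delimited after the values were seen, by the direction of its 7 peaks, and that all of them were more open in αTC1 follows from this choice. As a description, their median log2 fold change was -1.17. These peaks lie in introns, upstream of internal transcript starts of the gene. At 124.2 kb the αTC1 libraries had 51.0, 46.8, 46.4, 47.9 and 47.1 normalized reads and the βTC6 libraries 16.6, 14.6, 17.2, 14.1 and 18.5. The log2 fold change of -1.51 ± 0.10 (limma adjusted p = 4.84e-11) was -1.52 within replicates 1 to 3 and -1.50 within replicates 4 and 5. The smallest difference of the 7 was at 162.2 kb (-0.56 ± 0.22, limma adjusted p = 0.024), where both lines had under 8 normalized reads in every library.

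At other sites of the same gene the chromatin was more open in βTC6. The called peak lies 47.8 kb into the gene, also in an intron. It had 1.96, 2.39, 2.25, 3.14 and 1.59 normalized reads in αTC1, from 11 to 23 reads, and 13.8, 14.8, 12.2, 12.6 and 9.30 in βTC6, from 72 to 99 reads. The log2 fold change was 2.05 ± 0.20 (limma adjusted p = 1.47e-08), close to the fold threshold, and came out below it with quantile normalization (1.69), within replicates 4 and 5 (1.85), without αTC1 replicate 5 (1.97) or βTC6 replicate 2 (1.99), and with a pseudocount of 5 in place of 1 (1.26). It passed the FDR in each of these. With edgeR on whole reads the value was 2.44 and with a pseudocount of 0.5 it was 2.24. The intronic peak at 225.5 kb (log2 fold change 1.85 ± 0.21), that at 89.9 kb (1.65 ± 0.21) and an intergenic peak 128 kb before the gene (1.92 ± 0.29) were also more open in βTC6, each without overlap between the lines. With edgeR on whole reads these values were 2.232, 2.93 and 2.94, all past the fold threshold. In αTC1 those at 89.9 kb and 128 kb held at most 6 and 13 reads in any library. As the table holds no value below 1 read, a closed site and a site with 1 read are alike there. Of the 20 peaks nearest to the gene, which had 5.00-fold less RNA in βTC6, 8 were more open in that line and 12 in αTC1. Of all peaks 39.9% and 38.1% were. The share more open in βTC6 was thus near that of all peaks, and the share more open in αTC1 was above it.

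**Figure D3:**
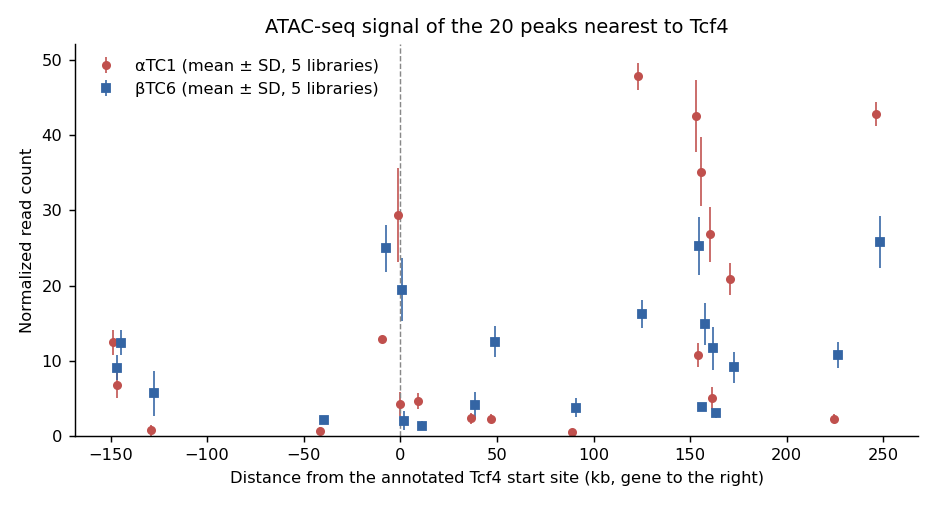
Normalized read count at the 20 peaks nearest to Tcf4 (mean ± SD over 5 libraries per line) against the distance from the annotated start site in kb, drawn with a shift of 1 kb to the left for αTC1 and to the right for βTC6. Between 124.2 and 171.8 kb, a stretch chosen for its direction, the αTC1 values lay above the βTC6 values at all 7 peaks, and at 47.8 and 225.5 kb below.

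Of the 5 peaks of Tcf12, 2 were more open in αTC1 and 3 did not pass, with log2 fold changes from -0.67 to -0.23. The libraries of the lines overlapped at all 5. The peak nearest to the start site had 7.56, 8.01, 9.77, 8.46 and 6.36 normalized reads in αTC1 and 4.69, 5.95, 8.38, 9.27 and 4.04 in βTC6 (-0.32 ± 0.21, limma adjusted p = 0.176). It passed only with quantile normalization (-0.63, adjusted p = 0.0205). A neighbouring intronic peak passed in the test over all libraries (-0.67 ± 0.24, limma adjusted p = 0.0158) and no longer within replicates 4 and 5 (-0.47) or without βTC6 replicate 2 (-0.51).

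At Tal1 the peak next to the start site and the RNA moved in opposite directions. The authors' annotation places this peak 544 bases before the start site, and it lies inside the span of a longer Tal1 transcript. It had 0.84, 1.26, 0.90, 1.09 and 0.72 normalized reads in αTC1 and 5.11, 3.49, 7.30, 5.14 and 3.19 in βTC6. All βTC6 libraries were above all αTC1 libraries, on a low level of 5 to 9 reads in αTC1 and 17 to 54 reads in βTC6. The log2 fold change was 1.54 ± 0.21 (limma adjusted p = 1.33e-06), with 1.61 within replicates 1 to 3 and 1.42 within replicates 4 and 5. The size depended on the scale at these low counts, with 2.31 by edgeR on whole reads, 0.71 with a pseudocount of 5 and 1.03 with quantile normalization, and the FDR was passed in each. A stronger peak 5.2 kb into the gene was more open in αTC1, the line with the higher RNA level. It had 22.1, 21.9, 24.0, 18.6 and 21.4 normalized reads there and 14.3, 11.9, 14.5, 14.7 and 12.9 in βTC6 (-0.63 ± 0.12, limma adjusted p = 5.95e-05, and -0.50 with an adjusted p of 0.0925 within replicates 4 and 5). The remaining 2 peaks, 8.6 and 21.2 kb before the gene, did not pass. The 200 bases nearest to the centre of the start-site peak are printed because this is the peak whose direction was opposite to that of the RNA, and they hold no E-box.
Tal1 start-site peak, mm9 chr4:114729772-114729971, plus strand: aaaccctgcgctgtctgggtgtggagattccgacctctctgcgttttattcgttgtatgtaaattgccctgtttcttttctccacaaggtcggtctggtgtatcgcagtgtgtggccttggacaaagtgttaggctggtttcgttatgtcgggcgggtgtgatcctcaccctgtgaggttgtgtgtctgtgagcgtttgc

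The peaks of Tfap4 were more open in αTC1 at 2 of 4 sites, more open in βTC6 at 1, and 1 did not pass. The start-site peak had 27.7, 36.1, 23.1, 25.9 and 24.3 normalized reads in αTC1 and 15.9, 13.9, 16.4, 20.7 and 17.2 in βTC6. The libraries did not overlap (-0.67 ± 0.13, limma adjusted p = 0.000106), although within replicates 4 and 5 the value of -0.39 had an adjusted p of 0.147. The peak 17.8 kb after the start site had a log2 fold change of -0.60 ± 0.11 (limma adjusted p = 6.90e-05). A weak exonic peak 8.4 kb into the gene, with 1.88 to 3.82 normalized reads in αTC1 and 3.29 to 6.77 in βTC6, went the other way (0.68 ± 0.23, limma adjusted p = 0.012), but its value was 0.17 with an adjusted p of 0.526 with quantile normalization and 0.31 with an adjusted p of 0.541 within replicates 4 and 5. The 200 exon-free bases nearest to the centre of the start-site peak are shown because they hold CAGCTG, the E-box that AP4 is known to bind, 2 times. E-boxes are in capitals in all sequences here.
Tfap4 start-site peak, mm9 chr16:4559975-4560174, plus strand: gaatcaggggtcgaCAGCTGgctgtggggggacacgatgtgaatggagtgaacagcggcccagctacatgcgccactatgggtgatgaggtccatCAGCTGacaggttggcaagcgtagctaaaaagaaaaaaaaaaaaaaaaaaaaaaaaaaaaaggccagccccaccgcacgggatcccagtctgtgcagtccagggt

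Upstream of Id1, neighbouring intergenic peaks moved in opposite directions. The peak 12.2 kb before the start site had 16.7, 15.0, 17.6, 15.6 and 20.1 normalized reads in αTC1 and 9.09, 7.79, 8.65, 7.42 and 2.16 in βTC6 (log2 fold change -1.27 ± 0.24, limma adjusted p = 8.10e-05). Within replicates 1 to 3 its value was -0.87 and within replicates 4 and 5, which hold the low βTC6 replicate 5, it was -1.86. The peak 10.8 kb before the start site had 3.50, 3.65, 2.86, 3.68 and 4.19 normalized reads in αTC1 and 8.66, 8.82, 11.2, 7.42 and 8.07 in βTC6 (1.10 ± 0.19, limma adjusted p = 2.53e-05). The libraries did not overlap at either peak, and in βTC6 the peaks had like levels, with means of 7.02 and 8.84, whereas in αTC1 they stood at 17.0 and 3.58. Within replicates 4 and 5 the second difference of 0.83 had an adjusted p of 0.0777. The start-site peak of Id1 was slightly more open in αTC1, with overlapping libraries (26.1 to 37.0 against 17.7 to 27.3 normalized reads, -0.45 ± 0.12, limma adjusted p = 0.00268), a difference that did not pass with quantile normalization (-0.25, adjusted p = 0.101) or within replicates 4 and 5 (-0.47, adjusted p = 0.0909). The central 200 bases of both upstream peaks are given side by side because of their opposite directions. The first holds the E-box CATCTG, which reads CAGATG on the other strand, 4 times and the second holds CAGCTG 1 time.
Id1 peak at 12.2 kb, more open in αTC1, mm9 chr2:152549724-152549923, plus strand: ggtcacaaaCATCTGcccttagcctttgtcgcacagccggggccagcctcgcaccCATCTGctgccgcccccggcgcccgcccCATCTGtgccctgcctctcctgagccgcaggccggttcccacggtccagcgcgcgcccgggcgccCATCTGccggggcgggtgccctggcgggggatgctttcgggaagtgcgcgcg
Id1 peak at 10.8 kb, more open in βTC6, mm9 chr2:152551070-152551269, plus strand: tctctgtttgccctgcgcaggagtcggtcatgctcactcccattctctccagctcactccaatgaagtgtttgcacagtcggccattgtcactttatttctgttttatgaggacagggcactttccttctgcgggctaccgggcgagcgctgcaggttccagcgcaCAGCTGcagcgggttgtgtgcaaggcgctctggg

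Of the 6 Id2 peaks 5 passed the FDR, all with more reads in αTC1. The largest differences were at the peaks farthest from the start site, inside the neighbouring gene Kidins220. The intronic peak 36.1 kb away had 10.4, 8.85, 6.61, 6.55 and 9.68 normalized reads in αTC1 and 0.99, 3.49, 1.35, 1.85 and 1.88 in βTC6 (log2 fold change -1.73 ± 0.24, limma adjusted p = 1.59e-06). The exonic peak at 49.9 kb had a log2 fold change of -1.45 ± 0.23 (limma adjusted p = 1.06e-05). At the start site, where the αTC1 signal was the highest of all 52 peaks, αTC1 had 61.3, 61.7, 64.8, 66.7 and 65.4 normalized reads and βTC6 44.7, 40.0, 43.0, 45.5 and 49.7. The lines did not overlap and the difference passed (-0.51 ± 0.08, limma adjusted p = 1.24e-05), but not with quantile normalization (-0.09, adjusted p = 0.299). The Id2 RNA did not pass the test. The centre of the 36.1 kb peak, which had the largest negative difference of the 52 peaks, is printed with its single E-box, CACTTG.
Id2 peak at 36.1 kb, more open in αTC1, mm9 chr12:25744735-25744934, plus strand: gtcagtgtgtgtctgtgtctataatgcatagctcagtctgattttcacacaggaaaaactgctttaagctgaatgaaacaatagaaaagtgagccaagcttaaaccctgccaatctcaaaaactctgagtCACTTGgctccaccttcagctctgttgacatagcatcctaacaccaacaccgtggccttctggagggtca

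Id3 RNA rose in βTC6, while its start-site peak did not pass the test. This peak, in an exon of Id3, had 35.3, 45.2, 45.2, 46.9 and 33.7 normalized reads in αTC1 and 35.1, 31.2, 32.6, 39.4 and 37.7 in βTC6. The libraries overlapped and the test was not passed (log2 fold change -0.22 ± 0.11, limma adjusted p = 0.0777). With quantile normalization its sign turned (0.13, adjusted p = 0.279), and it passed within replicates 1 to 3 (-0.33) and without αTC1 replicate 1 (-0.27) or αTC1 replicate 5 (-0.29). An intergenic peak 26.6 kb before the gene was more open in αTC1, with 28.9, 29.4, 33.4, 28.9 and 23.5 normalized reads against 12.9, 13.1, 13.2, 11.6 and 13.8 (-1.09 ± 0.11, limma adjusted p = 3.55e-08). This value was -1.16 within replicates 1 to 3 and -0.99 within replicates 4 and 5. The Id3 peak in the direction of the RNA was a small one 4.1 kb after the start site (0.51 ± 0.20, limma adjusted p = 0.0265), whose libraries overlapped. It no longer passed with quantile normalization (0.28), within replicates 1 to 3 (0.31), or without any 1 of αTC1 replicates 1 and 5 (0.47 and 0.43) and βTC6 replicates 1, 3 and 4 (0.46, 0.47 and 0.42).

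At Id4 the start-site peak and the RNA were both higher in βTC6. The peak, which covers exon sequence of Id4, had 20.2, 25.3, 20.1, 19.7 and 23.4 normalized reads in αTC1 and 42.6, 39.2, 49.1, 50.2 and 43.4 in βTC6. Every βTC6 library was above every αTC1 library, by 2.02-fold (log2 fold change 1.01 ± 0.10, limma adjusted p = 2.86e-08). It was 0.97 within replicates 1 to 3 and 1.09 within replicates 4 and 5. The start site was thus open in αTC1 as well, where the RNA stood at 0.07 to 0.11 FPKM. Both other peaks, in introns of the neighbouring transcript A330033J07Rik, were more open in αTC1. That at 33.4 kb before the gene had 24.9 to 37.3 normalized reads in αTC1 and 13.3 to 19.6 in βTC6 (-0.84 ± 0.13, limma adjusted p = 5.19e-06). That at 77.7 kb had 5.32, 5.48, 5.11, 6.41 and 10.7 normalized reads in αTC1 and 1.70, 1.44, 1.35, 2.28 and 1.22 in βTC6 (-1.52 ± 0.23, limma adjusted p = 4.09e-06), and its value was -1.35 without αTC1 replicate 5, -0.80 with a pseudocount of 5 and -2.05 with edgeR on whole reads. The centre of this distal peak is shown because it moved against the start-site peak and holds 3 E-boxes, CAGCTG 1 time and CAGATG 2 times.
Id4 peak at 77.7 kb, more open in αTC1, mm9 chr13:48279035-48279234, plus strand: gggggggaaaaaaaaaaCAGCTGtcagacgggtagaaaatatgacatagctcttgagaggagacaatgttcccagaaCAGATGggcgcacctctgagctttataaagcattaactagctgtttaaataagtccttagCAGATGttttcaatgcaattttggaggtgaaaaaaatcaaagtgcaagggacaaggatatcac

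The share of the 52 peaks with an E-box was near that of all peaks. The hexamer CANNTG, searched in the central 200 bases of each peak, where N is any base and a match on a strand is a match on the other, was found in 37 of the 52 peaks (71.2%) and in 69.2% of all 65053 peaks. Of its palindromic forms, CAGCTG was found in 15 of the 52 (28.8%, against 17.2% of all) and CACGTG, the form bound by Myc and Max, in 3 (5.77%, against 3.72%). CAGATG, bound by pairs of an E protein with Neurod1 or with Tal1, was found in 7 (13.5%, against 23.2% of all), and CACCTG in 10 (19.2%, against 13.9%). The last pair was searched on both strands. Every one of these words is a form of CANNTG, so that the counts overlap. With 52 peaks near 8 genes, many of which lie next to each other, these shares are descriptions, and a match is not a bound site.

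The 9 mixtures, which took no part in the calls, showed whether the signal of a peak followed the share of αTC1 cells put into the sample. Of the 43 peaks that passed the FDR, 36 had a Pearson's r in the direction of the pure lines (83.7%). Of all 50741 peaks that passed, 95.8% had a Spearman's rho in that direction, so that these shares rest on unlike measures. The signs differed at the Tcf4 start-site peak (r 0.18, rho -0.02) and the Tfap4 peak at 8.4 kb (r -0.07, rho 0.13). By rho, 16 of the 43 (37.2%) had that direction with an exact permutation p under 0.05, against 66.3% of all such peaks. By r, 17 of the 43 had that direction and passed the exact permutation test adjusted over all 50741 peaks, whereas 66.3% of all such peaks did. The 17 were 8 peaks of Tcf4, 3 of Id4, 2 each of Id1 and Id2, and 1 each of Id3 and Tal1, with none of Tcf12 or Tfap4. Of the 7 peaks between 124.2 and 171.8 kb into Tcf4, 2 were among the 17, and the small peak at 162.2 kb had an r opposite to the difference of the lines (-0.08). At 124.2 kb r was 0.766 (exact permutation p = 0.0131, adjusted p = 0.0233), rho was 0.72 (exact permutation p = 0.0369), and r without the mixtures of 10% and 90% was 0.380 (exact permutation p = 0.392), so that this relation rests on those libraries.

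The called Tcf4 peak at 47.8 kb fell along the mixtures as αTC1 cells were added. It had 7.53, 10.0, 7.39, 7.52, 3.65, 3.93, 3.34, 2.95 and 1.02 normalized reads at 10% to 90% αTC1 cells. Pearson's r was -0.918 (2-sided exact permutation p = 0.000876, adjusted p = 0.00319) and Spearman's rho was -0.95 (exact permutation p = 0.000353). Without the mixtures of 10% and 90% r was -0.926 (exact permutation p = 0.00238). The smallest p that 9 libraries allow is 5.51e-06.

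The opposed Id1 peaks kept their directions in the mixtures. The peak at 12.2 kb went from 4.84 normalized reads at 10% αTC1 cells to 19.1 at 90% (r = 0.969, exact permutation p = 4.96e-05, adjusted p = 0.000632, rho = 0.95, exact permutation p = 0.000353). Without the end mixtures r was 0.945. The peak at 10.8 kb went from 6.45 at 10% to 3.05 at 90% (r = -0.820, exact permutation p = 0.00627, adjusted p = 0.0131, rho = -0.80, exact permutation p = 0.0138), and without the end mixtures r was -0.722 with an exact permutation p of 0.0567, so that its relation rests in part on these libraries. The Id3 peak at 26.6 kb rose with the share of αTC1 cells (r = 0.917, exact permutation p = 0.000573, adjusted p = 0.00242, rho = 0.85, exact permutation p = 0.00607), and r was 0.910 without the end mixtures. The Id4 start-site peak fell (r = -0.755, exact permutation p = 0.0201, adjusted p = 0.0330, rho = -0.77, exact permutation p = 0.0214), with an r of -0.741 and an exact permutation p of 0.0583 without the end mixtures. The Tal1 start-site peak did not pass (r = -0.559, exact permutation p = 0.115, adjusted p = 0.145, rho = -0.58, exact permutation p = 0.108), and r was -0.01 without the end mixtures. It had 3.36 normalized reads at 10% αTC1 cells and 1.22 to 2.43 at 20% and above.

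**Figure D4:**
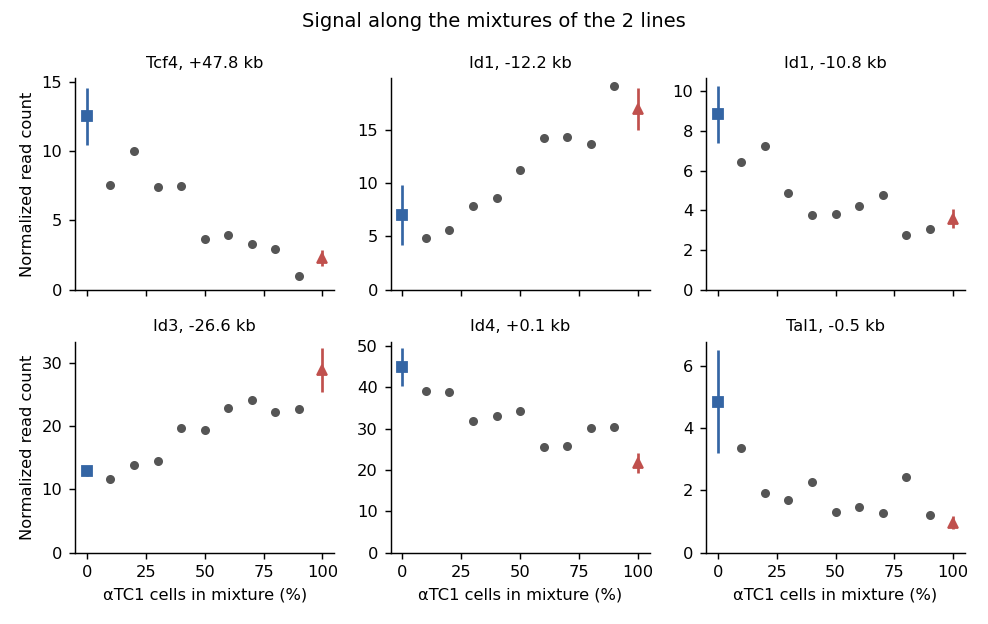
Normalized read count against the percent of αTC1 cells for 6 peaks. Grey points are the 9 mixtures with 1 library each, squares at 0% are βTC6 and triangles at 100% αTC1 (mean ± SD, 5 libraries). The Id1 peaks at 12.2 and 10.8 kb went in opposite directions, with r of 0.969 and -0.820, and the Tal1 peak was low from 20% αTC1 cells on.

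Genes that work with these factors were read from 5 lists. Of 40 class I and class II bHLH genes, which can pair with E proteins, 6 reached the level for testing and 34 did not. Among the 6, 1 was called higher in βTC6 and 3 higher in αTC1, beside 10.2% and 4.08% of all tested genes. Of the 6, Neurod2, Neurod6 and Bhlha15 reached the level for testing in a single line. The filter favoured a difference in these genes, so that the counts of calls say nothing about the list. Neurod1 was the most abundant of the 6 and did not pass the test, with 87.4, 88.4 and 101 FPKM in αTC1 and 85.8, 83.8 and 76.4 FPKM in βTC6 (log2 fold change -0.11 ± 0.09, edgeR adjusted p = 0.272). Its relatives Neurod2 and Neurod6 were at or near 0 in βTC6. Neurod2 had 8.63, 8.91 and 6.12 FPKM in αTC1 and 0, 0.04 and 0 FPKM in βTC6, a ratio of 633 between 1773 and 3 counts with an exact 95% interval of 216 to 3072, and Neurod6 had 1.81, 1.53 and 1.33 FPKM against 0.02, 0.09 and 0.02 (log2 fold change -5.06 ± 0.43). Atoh8 fell in βTC6 from 22.2 to 35.6 FPKM to 2.58 to 3.98 FPKM (-3.24 ± 0.22). Bhlha15 (Mist1), known from secretory cells, rose from 0.17 to 0.24 FPKM in αTC1 to 4.97 to 8.43 FPKM in βTC6 (5.13 ± 0.28). The edgeR adjusted p of these called genes lay between 2.37e-07 and 6.36e-06.

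The LMO and LDB1 adaptors, which hold Tal1 and E protein pairs together in blood cells, were present in part. Lmo4 fell from 28.3, 29.6 and 28.0 FPKM in αTC1 to 6.70, 8.48 and 7.40 FPKM in βTC6 (log2 fold change -1.87 ± 0.10, edgeR adjusted p = 4.35e-07). Lmo1 rose, from 13.1, 14.45 and 18.3 FPKM in αTC1 to 29.7, 33.4 and 25.9 FPKM in βTC6 (1.01 ± 0.15, edgeR adjusted p = 0.000254, and 0.0702 with scaling by the spike-ins), and was the most abundant of the 4 listed LMO genes in βTC6. Ldb1 fell slightly, from 65.3, 68.7 and 76.9 to 47.0, 46.7 and 47.7 FPKM (-0.53 ± 0.08, edgeR adjusted p = 0.000332) and did not pass with scaling by the spike-ins (-0.57, adjusted p = 0.332). Lmo2, the usual partner of Tal1 in blood, was at 0 FPKM in all αTC1 libraries and at 0.82, 0.23 and 0.43 FPKM in βTC6, below the level for testing. Its summed 55 counts in βTC6 were at least 17.1-fold above the floor of 3 counts over the αTC1 libraries. Of the 14 tested genes of this list 2 were called higher in βTC6 and 1 in αTC1, beside 10.2% and 4.08% of all tested genes, with a median of -0.01. Gata2, a further member of Tal1 complexes in blood, had 9.90, 10.7 and 8.37 FPKM in αTC1 and 0.16, 0.07 and 0.05 FPKM in βTC6 (-6.62 ± 0.27, edgeR adjusted p = 7.52e-08). The Ssbp family, which stabilises Ldb1, went both ways. Ssbp2 fell from 47.6, 48.3 and 47.7 FPKM to 19.0, 17.6 and 19.3 FPKM (-1.58 ± 0.09, edgeR adjusted p = 4.12e-07), Ssbp3 rose 1.52-fold (0.60 ± 0.08, edgeR adjusted p = 0.000159), and Ssbp4 rose from 0.34 to 0.59 FPKM to 28.1 to 32.6 FPKM (6.11 ± 0.17, edgeR adjusted p = 8.63e-09), and Cbfa2t3 (Eto2), a co-repressor, from 0 to 0.12 FPKM to 1.42 to 1.66 FPKM (5.16 ± 0.47, edgeR adjusted p = 9.06e-06). Gata2, Ssbp4 and Cbfa2t3, like Tal1, reached the level for testing in a single line, so that the filter favoured the direction they showed.

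Of the 5 tested repressors of the HES, HEY and clock type, which bind E-box or N-box variants, 4 fell and 1 rose in βTC6 by the FDR, beside 36% and 38.7% of all tested genes, with a median of -1.23 beside 0.0094 over all genes. Hey1, a Notch target, was called (11.8, 12.1 and 18.95 FPKM in αTC1 against 2.46, 2.2 and 2.1 FPKM, log2 fold change -2.61 ± 0.20, edgeR adjusted p = 3.69e-06). In the list of BMP ligands, receptors, Smads and inhibitors, the inputs that drive Id1 to Id3 in many cells, 5 of 16 tested genes rose, 6 fell and 5 did not pass, with a median of 0.11. The share that passed was near the 74.6% of all tested genes, here and in the leucine zipper list that follows. Grem1, a secreted BMP antagonist, was at 0 counts in all αTC1 libraries and at 1.54, 1.47 and 1.61 FPKM in βTC6, at least 153-fold above the floor of 3 counts over the αTC1 libraries. Setting it at this bound left the median at 0.11. Of 17 tested E-box factors with a leucine zipper 5 rose, 7 fell and 5 did not pass, with a median of -0.12. Mlxipl (ChREBP), a glucose-responsive factor, rose from 2.71, 2.06 and 8.31 FPKM in αTC1 to 162, 100.0 and 196 FPKM in βTC6 (5.36 ± 0.50, edgeR adjusted p = 1.06e-05), and Myc from 0.66, 0.70 and 1.66 to 7.63, 3.91 and 11.6 FPKM (2.91 ± 0.49, edgeR adjusted p = 0.000494). For both, βTC6 replicate 3 was the highest and βTC6 replicate 2 the lowest library of the line, as it was for Id1, Id2 and Id3. Over the 5 lists 44 genes passed the FDR, and 23 did with scaling by the spike-ins. Of the 11 called genes 8 reached the level for testing in a single line, so that the filter favoured a difference in them. Atoh8, Hey1 and Mlxipl reached the level in both lines.

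**Figure D5:**
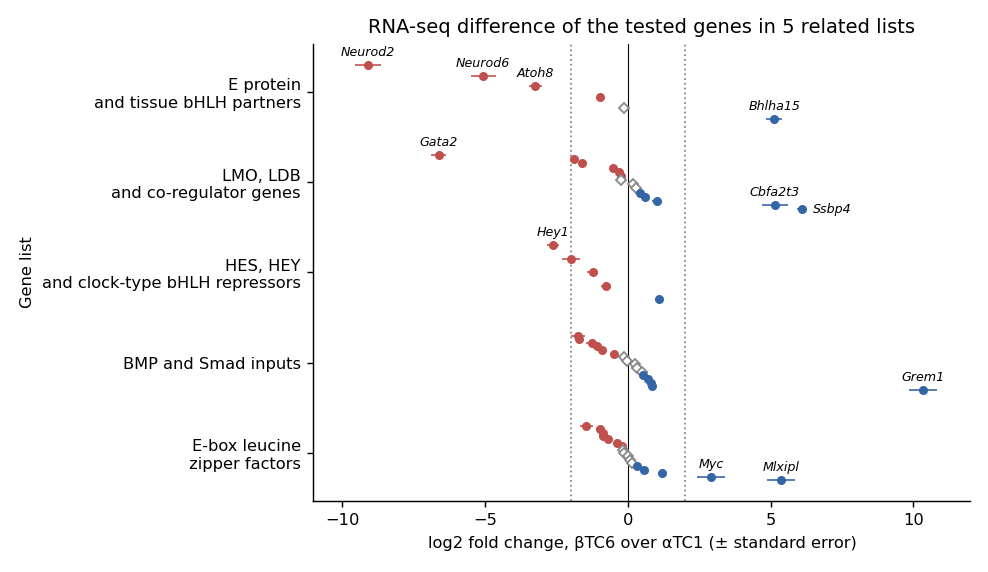
Log2 fold change (βTC6 over αTC1) with its standard error for each tested gene of the 5 lists. Filled circles passed the FDR and open diamonds did not, dotted lines mark the fold threshold of 2, and called genes are named. The value of Grem1 rests on 0 counts in αTC1 and depends on the prior count of the fit.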

How the data were processed

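RNA-seq (stranded mRNA libraries with ERCC spike-ins, 3 per line) and ATAC-seq (5 per line and 9 mixtures) had been processed by the authors. RNA reads were trimmed with Trim Galore, aligned with Bowtie2 and quantified with RSEM on Ensembl transcripts, and the deposited table holds expected counts and FPKM. ATAC-seq reads were aligned to mm9 with BWA, deduplicated with Picard and called with MACS2 per library. The deposited signal is a TMM-normalized read count over DiffBind consensus peaks, annotated with HOMER. Whole reads could be recovered for 100% of values (within 0.01), the lowest value being 1 read. The authors' peak class column was not used, and 0 value columns were left over.

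Expected counts were rounded and tested with edgeR 4.0.16 (quasi-likelihood, TMM) over 12195 genes with an FPKM of at least 1 in all 3 libraries of a line. The 92 spike-in rows stayed out. The authors' RUVSeq step on the spike-ins was not run, and scaling by them was an alternative. Standard errors of genes were derived from the F statistic. Peaks were tested with limma 3.58.1 on log2(value + 1). The mixture p-values were adjusted over all 50741 peaks past the FDR, not over called members alone as first planned. Scripts ran in R 4.3.3 and Python 3.11.15 and were tested on simulated data. Alternatives were other scalings, filters and pseudocounts, DESeq2 1.42.0, edgeR on whole reads, a replicate block, replicates 1 to 3 or 4 and 5 alone, and each library left out. Intervals of count ratios are exact 95% Poisson intervals.

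The peaks named were, per gene, that nearest to the start site, the 1 with the largest moderated t in each direction, and called ones, and others were named after their values were seen. From each list up to 4 called genes were named, with Tcf3, Neurod1, Lmo2, Lmo4 and Ldb1, while Lmo1, Ssbp2 and Ssbp3 were added after their values were seen. Members and lists were chosen with earlier results of these data known. Replicates with the same number did not vary together (r from -0.0019 to 0.069 over 5 ATAC-seq pairs and -0.095 to 0.079 over 3 RNA-seq pairs), so the numbers were not taken as pairs. Sequences were read from mm9.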

Additional observations from a re-analysis of the deposited data

Results flagged for a closer look

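Dixon's test for a sample far from the others, applied to the 40 groups of 5 libraries at 20 named peaks, marked 2 of them, where chance marks about 1 in 20. At the Id1 peak 12.2 kb before the start site βTC6 replicate 5 had 2.16 normalized reads, whereas the other βTC6 libraries had 7.42 to 9.09. At the Id4 peak 77.7 kb before the start site αTC1 replicate 5 had 10.7 normalized reads, whereas the other αTC1 libraries had 5.11 to 6.41. Both peaks passed the FDR without these libraries.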

How the results depend on the processing

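Of the 8 genes 3 were called under every alternative run, and 5 or 6 passed the FDR when a library was left out. The sign of Id1 RNA turned to -0.022 with scaling by the spike-ins and to -0.31 without βTC6 replicate 3 (range -0.31 to 0.38 with each library left out), and that of the Id3 start-site peak turned to 0.13 with quantile normalization. The cause was not tested. The count of called peaks, 1 of 52, was 4 with a pseudocount of 0.5, 0 with a pseudocount of 5, 2 within replicates 4 and 5, 8 with edgeR on whole reads and 0 to 2 with each library left out, being 0 without αTC1 replicate 5 and 2 without αTC1 replicate 3 or 4. With quantile normalization it was 1, the Id2 peak at 36.1 kb (-2.15) in place of the Tcf4 peak, and without βTC6 replicate 2 it was the Tcf4 peak 128 kb before the gene (2.12). A pseudocount of 5 also lowered the Id1 peak at 10.8 kb to 0.69, the Id2 peak at 36.1 kb to -0.96 and the Id4 peak at 77.7 kb to -0.80, each still past the FDR. By the FDR alone 39 to 42 of the 52 passed with a library left out, and 29 within replicates 4 and 5 (39231 over all peaks, against 50741). Over all peaks the fold threshold called 8409 higher in βTC6 and 3502 higher in αTC1, which became 11237 and 4624 with a pseudocount of 0.5, 1668 and 819 with a pseudocount of 5, 9280 and 4367 within replicates 4 and 5, and 13794 and 5739 with edgeR on whole reads, where 50397 passed the FDR. Keeping only peaks of at least 5 normalized reads moved the median of all peaks to -0.19 and that of the member peaks from -0.44 to -0.49. Along the mixtures 1 called peak passed, and 17 peaks without the fold threshold, an alternative chosen after the data were seen. In the 5 related lists 11 genes were called, 28 with no filter and 20 with at least 10 counts in 3 libraries (over all genes 2510 and 1020, and 1893 and 742, against 1245 and 498), and 11 to 12 with a library left out. Of the list genes 44 passed the FDR, 42 to 46 with a library left out, and 23 with scaling by the spike-ins, which lowered the number over all genes from 9102 to 3566. The replicate block, fitted although the numbers do not pair the libraries, gave 3 called genes and 5 past the FDR, 1 called peak and 42 past the FDR, and 11 and 43 genes of the lists. Low depth limits the Tal1 start-site peak (5 to 9 reads in αTC1) and the Tcf4 peaks at 89.9 kb and at 40.6 and 128 kb before the gene, which held 1 to 13 reads in αTC1.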
